A study of Saccharomyces cerevisiae with 12 samples.

Results

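Gene expression of the Spt4-AA mutant of *Saccharomyces cerevisiae* was followed upon osmostress in 6 of the 12 RNA-seq libraries of the series, namely 3 libraries of mutant cells after 15 min in 0.4 M NaCl and 3 libraries of mutant cells without stress. The libraries were taken by their labels alone, and all genes were considered. The strain is BY4741, a MATa laboratory strain with the deletion alleles ura3-delta 0, met15-delta 0, leu2-delta 0 and his3-delta 1. Its *SPT4* gene encodes the T42A and S43A substitutions (threonine and serine to alanine, positions counted from the first methionine) and a TAP tag next to the kanMX4 marker. The wild type set beside it, with 3 libraries after salt and 3 without stress, has, by its label, the same background, tag and marker and an unchanged *SPT4* sequence. All cells grew in rich YPD medium, and the study's methods describe the replicates as biological, without saying whether the mutant was tested in more than 1 clone.

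Yeast cells that meet high salt activate the Hog1 kinase through the HOG pathway, accumulate glycerol to balance the osmotic pressure, and pass through an environmental stress response in which Msn2 and Msn4 activate protective genes while ribosome production is switched down. Spt4 forms with Spt5 the elongation factor DSIF, which travels with RNA polymerase II along transcribed genes, and the study describes the substituted residues as sites that Hog1 phosphorylates. The comparison asks which functions still respond to salt when these residues cannot be phosphorylated.

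The table held counts for 7126 genes, of which 6040 had enough counts to be tested. The 3 salt-treated mutant libraries held 16459098 to 17873409 counts on genes and the 3 unstressed ones 12903162 to 16687235. The standard error of the mutant's log2 fold change had a median of 0.14 over genes. Levels are given as normalized CPM, which are counts scaled to one common library size and do not correct for gene length, so they are compared between libraries and not between genes. A gene was called when edgeR's quasi-likelihood test gave a Benjamini-Hochberg adjusted p under 0.05 over all genes tested and the log2 fold change, salt over no stress, was at least 1 in size. Errors of log2 fold changes are standard errors. *SPT4* itself, whose sequence change is not visible in gene counts, had 17.2, 19.2 and 12.8 CPM in the salt-treated mutant libraries and 9.98, 7.78 and 11.6 CPM in the unstressed ones.

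Replicates 1 and 2 of the salt-treated mutant carry library numbers apart from those of the other 10 libraries, which run nearly in sequence. The labels do not say what the numbers stand for, and no other group holds libraries of both series, so the numbers could be examined only within the salt-treated mutant, where replicate 3 has a number like the rest. Replicate 3 differed from replicate 1 by a root mean square log2 difference of 0.383 and from replicate 2 by 0.525, and replicates 1 and 2 differed by 0.35, beside 0.262 to 0.425 for pairs of the other groups. Along the second principal component, which held 6.97% of the variance, replicates 1, 2 and 3 lay at 26.78, 31.52 and 11.81, while the first component, with 85.3%, placed them together at 41.51, 41.31 and 42.83. Replicates 1, 2 and 3 of the salt-treated wild type, which are numbered in sequence, also spread along the second component, at -11.11, -15.63 and -26.64. A term for the numbers in the model passed the threshold for 421 genes, 6.97% of those tested, with 295 higher (4.88%) and 126 lower (2.09%) in replicates 1 and 2, and was at least 2-fold for 67 genes, 1.11%.

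Despite this distance, replicate 3 alone showed the same directions. Of the 951 genes called higher, 950 were above the unstressed mean in replicate 3, and all 897 genes called lower were below it. These counts are descriptions, since replicate 3 took part in the calls. The response exceeded 1 on the log2 scale for 93.7%, 90.6% and 87.1% of the higher genes in replicates 1, 2 and 3, and fell below -1 for 92.1%, 88.9% and 85.8% of the lower genes. When replicates 1 and 2 were both left out, a fit in which the salt-treated mutant is a single library with no spread of its own and is assumed to vary like the other groups, 907 genes were called higher and 902 lower, and these held 794 of the 951 higher genes and 761 of the 897 lower genes. The libraries differed in relation to gene length. Across 5726 genes with a known coding length, Spearman's rho between length and the log2 difference of replicate 3 from the mean of replicates 1 and 2 was 0.574, as a description over genes that share libraries. The median difference was -0.33 for all genes of up to 300 bases and 0.37 for all genes above 2400 bases, called genes included and ribosomal protein genes left out. For single pairs of salt-treated mutant libraries, rho of length with their log2 difference was -0.593 (replicate 1 minus 3), -0.518 (2 minus 3) and 0.189 (1 minus 2). Pairs within the other groups also showed length trends, with rho from -0.316 to 0.304. The largest gaps between replicate 3 and the other salt-treated libraries were a lower level of *RPL39* (-2.15 on the log2 scale) and higher levels of the small nucleolar RNAs *snR190* and *snR37* and of the short open reading frames *YPL038W-A* and *YGR174W-A* (1.77 to 2.31), besides the *ASP3* genes described next.

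**Figure D1:**
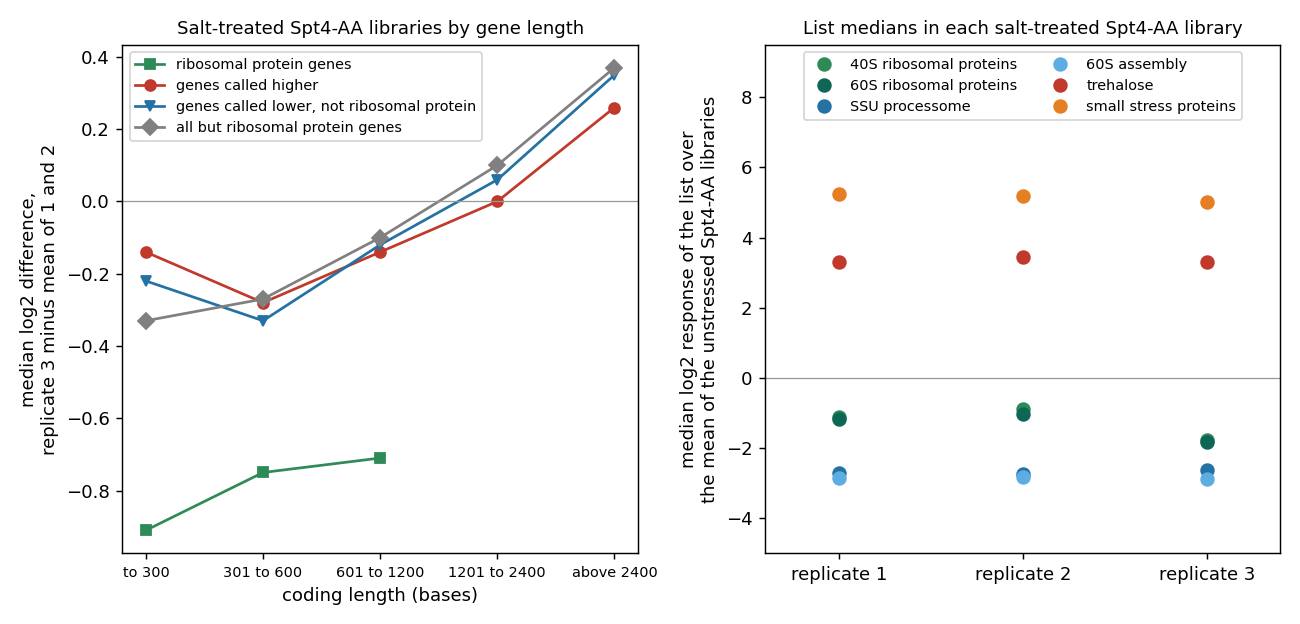
The left panel plots, by coding length in bases, the median log2 difference of replicate 3 from the mean of replicates 1 and 2 of the salt-treated mutant, and the right panel plots the median log2 response of 6 gene lists in each of the 3 libraries. Ribosomal protein genes lie at -0.91, -0.75 and -0.71 in the 3 length classes they fill, below the other genes of those classes, while the lists for trehalose, small stress proteins and ribosome assembly hold nearly the same median in each library.

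Replicate 2 of the salt-treated mutant also held reads of genes that the strain should lack. It had 27 counts on *LEU2*, 35 on *MET17* (the *MET15* gene of the label) and 77 on *URA3*, and, outside its listed genotype, 158 on *ASP3-1*, a nitrogen-starvation asparaginase present in several near-identical copies. The other 5 mutant libraries had at most 1 count on each of these 4 genes, although the wild type libraries had 2915 to 5256 counts on *ASP3-1*. *HIS3*, of which the his3-delta 1 allele keeps a part, had 489 to 807 counts in the mutant libraries. What these reads stand for was not tested. The strains thus also differed in *ASP3* expression, with and without salt, and for any difference between the strains the substitutions in *SPT4* and a genetic difference elsewhere cannot be told apart. Without replicate 2, 927 genes were called higher and 887 lower.

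Salt changed the expression of 1848 of the 6040 genes in the mutant, 30.6% of those tested. Of these, 951 were higher (15.7%) and 897 were lower (14.9%), and 1827 of the 1848 did not overlap between the 3 salt-treated and the 3 unstressed libraries, beside 4169 of all tested genes (69.0%). The higher genes started from a low level, with a median of 45.8 CPM in the salt-treated mutant and 10.9 CPM in the unstressed mutant, and 32 of them had at most 3 counts in every unstressed library. Together they took 22.7% to 25.6% of all counts in the salt-treated libraries and 3.72% to 3.8% in the unstressed ones. The lower genes had a median of 20.1 CPM after salt and 80.4 CPM without stress, and took 12.6% to 14.5% and 34.9% to 35.1% of the counts. The changes were often large, since 106 higher genes and 19 lower genes moved by at least 4 on the log2 scale. These changes are relative to the whole library, and in bulk cultures fewer responding cells and less RNA per cell cannot be told apart. When the libraries were scaled to *ENO1*, which the study used to load its blots evenly and which had 5402, 7109 and 4123 CPM after salt and 2797, 3045 and 3124 CPM without stress, the median of all genes lay at -0.81, and 389 genes were higher and 2478 lower, or 13.6% higher among the calls in place of 51.5%. Scaled to library totals alone, the median shifted by 0.15, and 1134 genes were higher and 746 lower, or 60.3% higher.

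Most of the response was shared with the wild type. Of the 951 higher genes 777 were also called higher in the wild type, which is 81.7% of the mutant's and 70.3% of the wild type's 1105 higher genes (18.3% of those tested). Of the 897 lower genes 767 were called lower in the wild type, 85.5% of the mutant's and 67.9% of the wild type's 1129 (18.7%). A test of the difference in response between the strains passed for 1568 genes (26.0%), with 663 responses lower in the mutant (11.0%) and 905 higher (15.0%), in which a smaller fall counts as higher. Among the 951 higher genes, 656 (69.0%) had no significant difference, 232 responded less in the mutant and 63 more. Among the 897 lower genes, 436 (48.6%) had none, 445 fell less in the mutant and 16 fell more. The median of the higher genes was 1.66 in the mutant and 1.89 in the wild type, and that of the lower genes -1.55 and -2.26. The count of differences ranged from 1175 to 2394 when single libraries were left out, with 2394 without replicate 3 of the salt-treated mutant, and was 878 when replicates 1 and 2 were both left out.

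**Figure D2:**
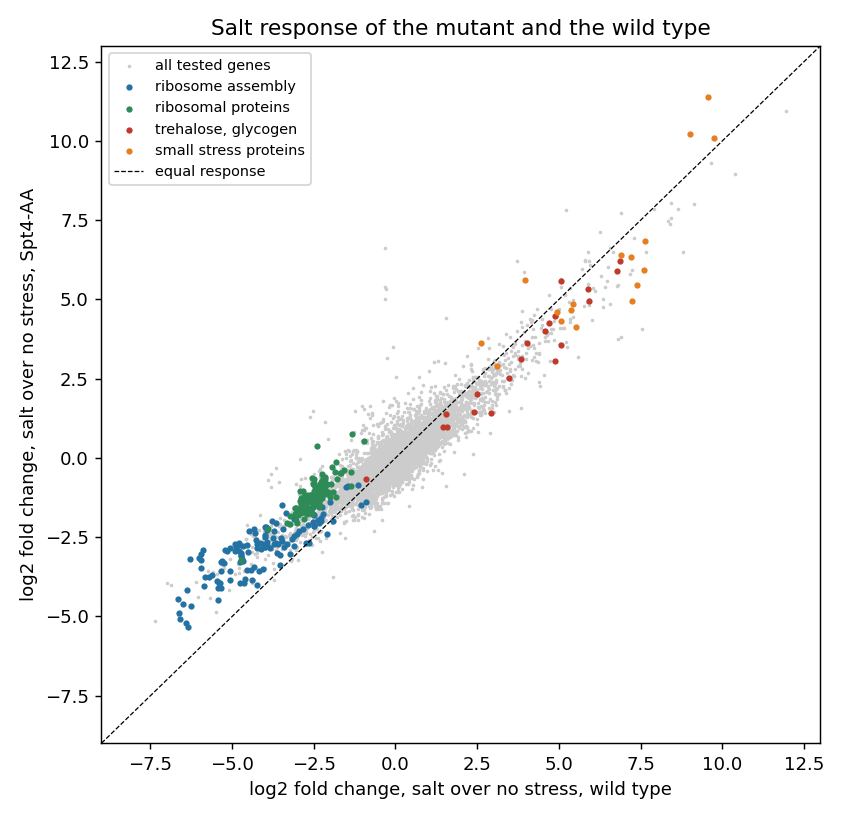
Each point is 1 of the 6040 tested genes, placed by its log2 fold change, salt over no stress, in the wild type (x axis) and in the Spt4-AA mutant (y axis), with 4 groups of genes in colour and a dashed line of equal response. The slope of the mutant on the wild type response over all genes was 0.75 (Pearson's r 0.921 across genes, a description), and the ribosome assembly and ribosomal protein genes lie above the line, that is, nearer to 0 in the mutant.

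Promoters of the genes with the largest changes carried short motifs known from stress genes and from ribosome assembly genes. The stress response element (STRE, CCCCT) is bound by Msn2 and Msn4, whereas the PAC box (GATGAG) and the RRPE element (AAAATTTT) are known from genes of ribosome assembly. Stretches of 30 bases are shown for the 6 largest rises and the 6 largest falls among named genes, read from the R64 (sacCer3) genome, 5′ to 3′ on the strand of the gene, with the motif in capitals on whichever strand it lies (AGGGG and CTCATC are the same elements on the other strand).
HSP12, chrVI:107053-107082 (plus strand): ggttccggtcgtcCCCCTcttgatctgaaa
STL1, chrIV:1507817-1507846 (plus strand): gcttcaattttgtCCCCTtcaacgctgctt
DDR2, chrXV:231926-231955 (minus strand): ctgtttccatttttgtcttttctcaCCCCT
RTC3, chrVIII:280607-280636 (plus strand): gtaacaacaacgaCCCCTtatttagtcgaa
YNL194C, chrXIV:273789-273818 (minus strand): tctccgctgttatCCCCTgctttcgatata
TKL2, chrII:476498-476527 (minus strand): tcaattggcttgtCCCCTcttactgtagtc
DHR2, chrXI:288762-288791 (plus strand): tctgctcGATGAGATGAGATGAGgttatga
MRD1, chrXVI:751991-752020 (minus strand): tagagCTCATCTCATCTCATCTCATCggta
AAH1, chrXIV:359424-359453 (plus strand): caggaaactgacCTCATCgcatgccaacga
HCA4, chrX:383738-383767 (plus strand): ttaagCTCATCTCATCTCATCTCATCccat
RRP12, chrXVI:529535-529564 (plus strand): AAAATTTTaattatatcatCTCATCTCATC
ENP2, chrVII:781662-781691 (plus strand): AAAATTTTgagctaagCTCATCTCATCtca

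Within 250 bases before to 50 after the start codon, on either strand, an STRE stood in the promoters of 44.2% of the higher genes, 11.6% of the lower genes and 21.8% of all tested genes with a promoter sequence. It was present in each of the 10 of the 12 largest rises that had a sequence. A PAC box stood in 45.2% of the lower genes, 14.3% of the higher genes and 20.3% of all, and in all 12 of the largest falls. *DHR2* holds 3 overlapping copies in the stretch shown, and *MRD1* and *HCA4* hold 4 each. An RRPE stood in 31.8% of the lower genes, 3.76% of the higher genes and 9.25% of all. These matches describe letters in a window and not binding. Among the lists given next, PAC was found in 90.0% of small-subunit processome genes and 88.4% of 60S assembly genes, but in 10.9% of ribosomal protein genes.

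**Figure D3:**
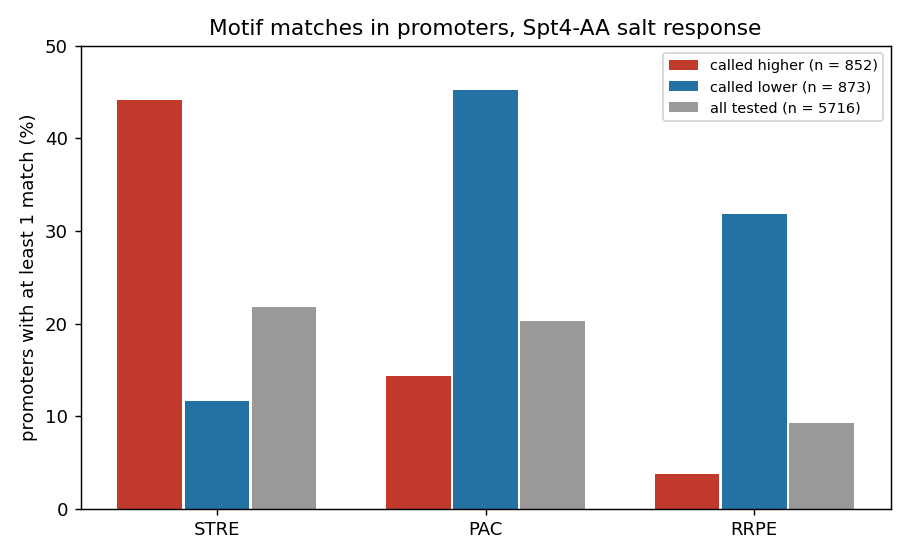
Bars give the percentage of promoters with at least 1 match of each motif among genes called higher in the salt-treated mutant (red), genes called lower (blue) and all tested genes (grey). STRE is most frequent among the higher genes, and PAC and RRPE among the lower genes.

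Small stress proteins and hydrophilins gave the largest rises. All 17 tested members of this list were called higher, beside 15.7% of all tested genes. Their median log2 fold change was 5.46, beside 0.01 over all tested genes. *HSP12* (YFL014W, chrVI:107256-107585, plus strand), a membrane-protecting heat shock protein, had 4943, 4694 and 3261 CPM in the salt-treated mutant libraries and 1.71, 2.1 and 0.954 CPM in the unstressed ones. This was a rise of 11.38 ± 0.29 on the log2 scale (adjusted p = 2.81e-13), with replicate 3 the lowest of the salt-treated libraries. *DDR2*, a protein induced by many stresses, had 976, 918 and 433 CPM after salt and 0.758, 0.467 and 0.694 CPM without stress. *RTC3*, which takes part in RNA metabolism, had 2539, 2331 and 2337 CPM after salt and 1.96, 2.26 and 2.43 CPM without. The groups lay far apart for each of these genes, although *DDR2* was clearly less abundant in replicate 3 than in the other salt-treated libraries. The hydrophilins *SIP18* and *GRE1* rose by 5.46 ± 0.21 and 4.94 ± 0.19. Their rises were smaller than those in the wild type, with differences of -1.94 ± 0.39 (adjusted p = 0.00258) and -2.28 ± 0.29 (adjusted p = 7.43e-05), whereas that of *HSP12* was larger by 1.81 ± 0.33 (adjusted p = 0.00138). Without stress *HSP12* lay lower in each mutant library than in each wild type library, at 1.71, 2.1 and 0.954 CPM in the mutant and 5.4, 6.32 and 7.04 CPM in the wild type.

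Glycerol is the main osmolyte of yeast. Of 16 genes of glycerol synthesis and transport 8 were higher (50.0%, beside 15.7% of all tested genes) and none lower, or 6 and 3 when scaled to *ENO1*. *GPD1*, the glycerol 3-phosphate dehydrogenase that is induced by salt, had 7816, 8265 and 6822 CPM after salt and 104, 110.0 and 95.3 CPM without stress, a rise of 6.21 ± 0.17. *GPP2*, the phosphatase of the next step, rose by 7.12 ± 0.15, more than in the wild type by 0.85 ± 0.17 (adjusted p = 0.00257), and *GPP1* by 1.72 ± 0.13. *STL1* (YDR536W, chrIV:1508005-1509714, plus strand), the glycerol proton symporter, had 2087, 2139 and 2107 CPM after salt and 1.01, 1.09 and 1.13 CPM without stress. Its 3 salt-treated libraries lay close together, and the rise of 10.93 ± 0.17 was below the 11.95 of the wild type (difference -1.01 ± 0.29, adjusted p = 0.0185). That difference did not pass the test without replicate 3 of the wild type grown without stress, or without replicates 1 and 2 of the salt-treated mutant, at -0.92 and -1.02. *GPD2*, the isoenzyme used when oxygen is short, had 257, 318 and 229 CPM after salt and 296, 311 and 306 CPM without, with overlapping libraries. The glycerol channel *FPS1* had 119.8, 124 and 131 CPM after salt and 174, 156 and 166 CPM without, and neither gene was called, although both were called lower when scaled to *ENO1* (-1.05 for *GPD2* and -1.22 for *FPS1*).

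Storage carbohydrates followed. Of 10 genes of trehalose synthesis and breakdown 9 were higher (median 3.37), and of 10 genes of glycogen metabolism 8 were higher (median 3.32). Both arms of these cycles rose together. *TPS1* and *TPS2*, the synthase and phosphatase that make trehalose, rose by 4.48 ± 0.18 and 4.94 ± 0.17, the regulatory subunit *TSL1* by 5.89 ± 0.17, and the trehalase *NTH1*, which cleaves trehalose, by 3.12 ± 0.1. For *TPS2* the values were 2283, 2451 and 2815 CPM after salt and 70.7, 86.8 and 88.5 CPM without stress. *PGM2*, the phosphoglucomutase that feeds both cycles, rose by 6.2 ± 0.16. The glycogen synthase *GSY1* rose by 5.59 ± 0.12, the branching enzyme *GLC3* by 4.25 ± 0.13 and the phosphorylase *GPH1*, which releases glucose from glycogen, by 5.34 ± 0.12. Of the 10 trehalose genes 7 responded less in the mutant than in the wild type, beside 11.0% of all tested genes, with a median difference of -0.69, and of the 10 glycogen genes 5 did and 1, *GSY1*, responded more, a difference of 0.51 ± 0.15 that was no longer significant, at 0.44, without replicates 1 and 2, or, at 0.45 to 0.52, without any of 3 single libraries.

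In several metabolic steps the minor isoenzyme rose while its major partner was not called higher, and the pairs named here were picked after their values had been seen. *TKL2*, the minor transketolase of the pentose phosphate pathway, had 1779, 2248 and 2027 CPM after salt and 4.04, 3.58 and 4.68 CPM without stress, a rise of 8.94 ± 0.23, beside 1135, 1381 and 1045 CPM and 1799, 2043 and 2001 CPM for *TKL1*, whose log2 fold change was -0.71 ± 0.14. The 6-phosphogluconate dehydrogenase *GND2* rose by 4.35 ± 0.15 and *GND1* fell by 1.2 (SE 0.11). The hexokinase *HXK1* rose by 6.51 ± 0.17, beside -0.31 ± 0.13 for *HXK2*. The cytochrome c gene *CYC7* rose by 5.8 ± 0.24 and *CYC1* fell by 1.68 (SE 0.19). The same held for the pyruvate kinases, with 2.84 ± 0.15 for *PYK2* and -0.67 ± 0.16 for *CDC19*. Among the phosphoglucomutases the major isoenzyme *PGM2* rose instead, beside -0.67 ± 0.1 for *PGM1*. For subunit 5 of cytochrome c oxidase, *COX5B* rose by 3.59 ± 0.18 and *COX5A* had 0.78 ± 0.15. Scaled to *ENO1* in place of the whole library, the median response over genes lay lower by 0.83, and each of the rising partners named here stayed above 1.

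The pentose phosphate list as a whole was mixed, with 5 of 11 genes higher and 2 lower (4 and 5 when scaled to *ENO1*). These are 45.5% and 18.2% of the list, beside 15.7% higher and 14.9% lower among all tested genes. *NQM1*, a transaldolase of unknown biological role, and *SOL4*, a 6-phosphogluconolactonase, rose by 8.03 ± 0.15 and 7.85 ± 0.16, while *RKI1*, the ribose 5-phosphate isomerase that supplies nucleotide synthesis, had 9.86, 11.2 and 10.1 CPM after salt and 129, 125 and 136 CPM without stress, so that it fell by 3.65 on the log2 scale. Among 17 tested hexose transporters, sensors and kinases 6 were higher (35.3%) and 2 lower (11.8%), or 6 and 5 when scaled to *ENO1*. The glucokinase *GLK1* and the transporter *HXT5*, used by slowly growing cells, rose by 6.24 ± 0.24 and 5.27 ± 0.14, and the low-affinity transporter *HXT3* fell by 2.05. Of 21 glycolytic genes 4 were higher (19.0%) and none lower, and these were the minor isoenzymes *PDC6*, *PYK2* and *GPM2* with the regulator *PFK26*. The list's median was 0.04, and -0.71, with 3 genes higher and 6 lower, when the libraries were scaled to *ENO1*, itself one of the members.

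Respiration and the tricarboxylic acid cycle rose in part, with 37.5% and 38.5% of their genes higher, beside 15.7% of all tested genes. Of 40 nuclear genes of the respiratory chain and the ATP synthase 15 were higher and 2 lower, with a median of 0.79 that became -0.07 under scaling to *ENO1*. *NDE2*, an external NADH dehydrogenase, rose by 4.29 ± 0.23. Of 13 genes of the cycle 5 were higher and 1 lower (1 and 1 when scaled to *ENO1*), led by the citrate synthase *CIT1* with 645, 594 and 650.2 CPM after salt and 103, 91.8 and 102 CPM without stress, and followed by *IDH2*, a subunit of isocitrate dehydrogenase, with 1.48 ± 0.1.

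Enzymes that detoxify aldehydes were largely induced. Of 14 aldehyde dehydrogenases and reductases 11 were higher and 1, *ALD5*, was lower. *ALD3*, a cytosolic aldehyde dehydrogenase, had 2621, 2655 and 2549 CPM after salt and 15.2, 13.3 and 15.6 CPM without stress, its neighbour in sequence *ALD2* rose by 5.0 ± 0.13, and the methylglyoxal reductase *GRE2* had 2539.7, 2871 and 2152 CPM after salt and 159, 152 and 160.5 CPM without. The rise of *ALD3* was below that of the wild type by a difference of -0.88 ± 0.18 (adjusted p = 0.0028), whereas that of *GRE2* did not differ significantly (0.29 ± 0.17, adjusted p = 0.22), but did so, at 0.4, without replicate 3 of the salt-treated mutant. Of 26 genes for catalases, superoxide dismutases, peroxidases and redoxins 10 were higher (38.5%, beside 15.7% of all tested genes) and none lower. Scaled to *ENO1*, 6 were higher and 3 lower, and the median was -0.18. The cytosolic catalase *CTT1* rose most of the list, with 2954, 3374 and 2831 CPM after salt and 14.2, 17.3 and 16.6 CPM without stress, and the peroxisomal catalase *CTA1* had 6.2, 9.61 and 6.73 CPM after salt and 4.93, 4.2 and 3.55 CPM without and was not called. The glutaredoxin *GRX2* and the mitochondrial peroxiredoxin *PRX1* rose by 2.79 ± 0.16 and 2.75 ± 0.08.

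Of 24 chaperone genes 10 were higher (41.7%, beside 15.7% of all tested genes) and 1 lower, or 8 and 5 when scaled to *ENO1*. The small heat shock proteins *HSP42* and *HSP26* rose by 5.58 ± 0.12 and 4.38 ± 0.15, the stress-induced Hsp70 *SSA4* by 3.94 ± 0.15, the disaggregase *HSP104* by 3.3 ± 0.11 and the inducible Hsp90 *HSP82* by 1.86 ± 0.1, while the cochaperone *YDJ1* fell by 1.2. For 10 of the 24 genes the response was lower than in the wild type, and for none was it higher, beside 11.0% lower and 15.0% higher over all tested genes. *HSP104* had 972, 952 and 1054 CPM after salt and 106, 93.5 and 103 CPM without stress in the mutant, and 1676, 1738 and 1844 CPM and 81.7, 86.9 and 83.1 CPM in the wild type. After salt the mutant libraries lay below the wild type libraries, and without stress they lay above them.

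Autophagy genes showed smaller rises. Of 37 *ATG* genes 18 were higher (48.6%, beside 15.7% of all tested genes) and none lower. Their median was 0.93, which was 0.14, with 10 higher and 2 lower, under scaling to *ENO1*. The receptors *ATG39*, for the nucleus, and *ATG36*, for peroxisomes, rose by 4.28 ± 0.27 and 2.59 ± 0.12, and *ATG8*, the ubiquitin-like protein of the autophagosome membrane, had 17.8, 12 and 14.4 CPM after salt and 2.02, 2.8 and 3.47 CPM without stress. Of 7 vacuolar proteases and inhibitors 6 were higher, among them *PEP4*, the protease that activates the others, with 2.48 ± 0.12, and *APE1* with 2.87 ± 0.1. None of the 33 proteasome genes was called. They ranged from -0.14 to 0.82, with a median of 0.43 that was -0.41 when scaled to *ENO1*, and their activator *RPN4* had 77.1, 73.2 and 77.8 CPM after salt and 66.2, 67.2 and 69.1 CPM without stress, against a log2 fold change of 0.89 in the wild type (difference -0.72 ± 0.11, adjusted p = 3.08e-04).

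Among genes of sodium and potassium transport and calcineurin 7 of 20 were higher (35.0%, beside 15.7% of all tested genes) and 1 lower. The sodium pumps *ENA1*, *ENA2* and *ENA5* rose by 2.23 ± 0.12, 1.91 ± 0.12 and 1.62 ± 0.11, and none of the 3 responses differed significantly from the wild type. For *ENA1* the libraries held 989, 1066 and 1036 CPM after salt and 199, 235 and 227 CPM without stress. The 3 genes are near-identical neighbours, and 11.5%, 0% and 8.83% of their 50-base windows, the length of a read, occur at a single place in the genome, so their separate values are uncertain. *ENA2* carried counts although none of its windows is unique, which counting of uniquely mapped reads alone would not give. The potassium transporter *TRK1* fell by 1.23. Scaled to *ENO1*, the list had 2 genes higher, *ENA1* among them, and 4 lower.

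Of 22 sensors, kinases and phosphatases of the HOG pathway none was called higher and 3 were lower, 13.6% beside 14.9% of all tested genes (8 genes when scaled to *ENO1*), namely the MAP3 kinase gene *SSK22*, the sensor *SHO1* and the mucin-like sensor *HKR1*, with -2.45 ± 0.2, -1.42 ± 0.12 and -1.21 ± 0.13. Without replicates 1 and 2 *HKR1* was at -0.9 and no longer called. *HOG1* had 449, 469 and 419.6 CPM after salt and 282, 314 and 315 CPM without stress, and its kinase *PBS2* had 85.3, 86.6 and 80.7 CPM after salt and 62.8, 70.4 and 70.9 CPM without. Of 22 transcription factors 6 were higher (27.3%, beside 15.7% of all tested genes) and none lower, or 3 and 6 when scaled to *ENO1*. The repressor *XBP1* rose by 4.09 ± 0.15 and *USV1* by 3.71 ± 0.21, both less than in the wild type (differences -1.07 ± 0.21 and -1.15 ± 0.29, adjusted p = 0.00253 and 0.0102). *MSN2* and *MSN4* had log2 fold changes of 0.89 ± 0.12 and 0.83 ± 0.12 and were not called, although without replicates 1 and 2 they were at 1.1 and 1.08. *HOT1* and *SKO1*, transcription factors that act with Hog1, had -0.42 ± 0.17 and -0.35 ± 0.21. For 6 of the 22 factors the response was lower in the mutant (11.0% of all tested genes), and for none higher, among them *MGA1*, at 8.86, 7.65 and 12.7 CPM after salt and 3.92, 2.72 and 3.03 CPM without stress in the mutant and 38.5, 31.2 and 32.8 and 2.07, 2.54 and 2.45 CPM in the wild type. In the Ras and protein kinase A pathway 6 of 17 genes were higher and 1, *RAS1*, was lower (2 and 4 when scaled to *ENO1*), and *TPK2*, a catalytic subunit of the kinase, rose by 2.3 ± 0.13.

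**Figure D4:**
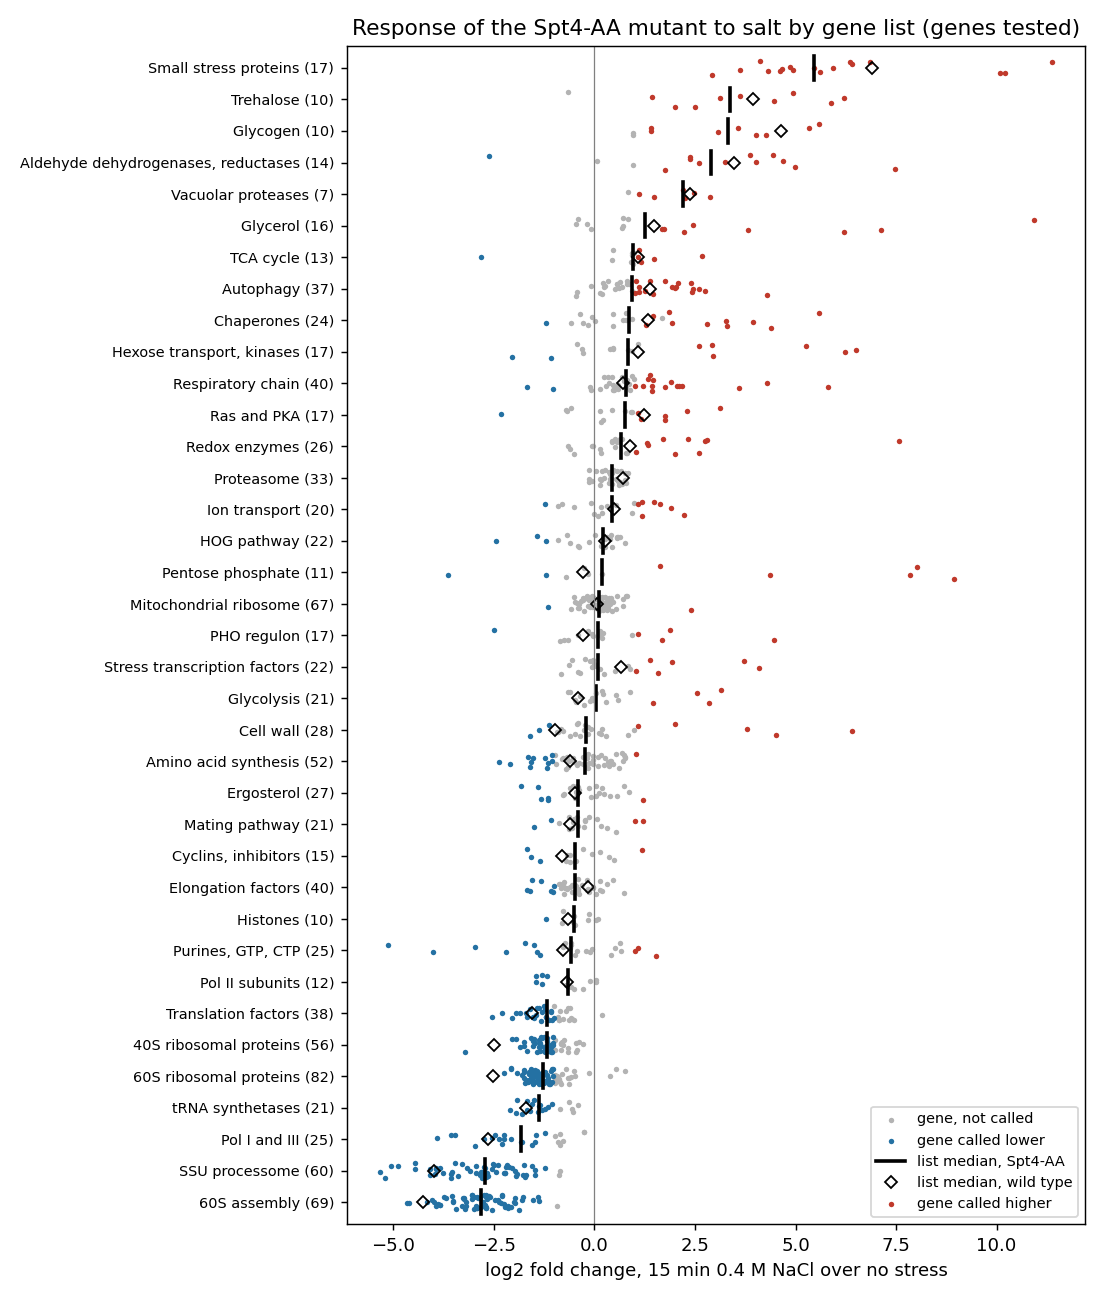
Each row is a gene list with the number of genes tested, each point a gene at its log2 fold change in the Spt4-AA mutant (x axis, salt over no stress), coloured if it was called, the bar the list's median in the mutant and the diamond that in the wild type. Lists of stress proteins and storage carbohydrates lie on the right with medians of 5.46, 3.37 and 3.32, and lists of ribosome production lie on the left with medians down to -2.82. Scaled to *ENO1*, the median over all genes lies 0.83 further left. The medians of the redox, respiratory chain, Ras and PKA, hexose, ion transport, proteasome, HOG pathway, pentose phosphate, PHO regulon, stress factor, mitochondrial ribosome and glycolysis lists then lie below 0.

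Ribosome assembly had the lowest medians of the lists examined. Of 60 genes of the small-subunit processome, which matures the 18S ribosomal RNA, 58 were lower (median -2.73), and of 69 factors of 60S assembly 68 were lower (median -2.82), against a share of 14.9% lower among all tested genes. The RNA helicase gene *DHR2* (YKL078W, chrXI:288845-291052, plus strand) had 0.941, 1.83 and 1.98 CPM after salt and 64.1, 63.8 and 62.3 CPM without stress, and thus fell by 5.32 (edgeR's adjusted p = 3.39e-12). *MRD1*, an RNA-binding protein of the same complex, had 1.44, 3.11 and 2.19 CPM after salt and 99.1, 70.2 and 78.4 CPM without stress. *NOP7*, needed for the 60S subunit, had 11.4, 12.9 and 8.45 CPM after salt and 267, 278 and 251 CPM without. For each of these genes the highest salt-treated library lay far below the lowest unstressed one. Further falls of more than 4 on the log2 scale were seen for *HCA4*, *RRP12*, *ENP2*, *LTV1*, *SDA1*, *SAS10*, *UTP23* and *DRS1*, all of them ribosome assembly factors, and for *TOD6*, a repressor that binds the PAC box.

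The fall of ribosome assembly was nevertheless smaller in the mutant. The difference from the wild type was positive for 46 of the 60 processome genes and 52 of the 69 60S factors, against 15.0% of all tested genes, and negative for none of either list. *NOP7* fell to 11.4, 12.9 and 8.45 CPM in the mutant after salt, against 2.15, 2.64 and 3.65 CPM in the salt-treated wild type, with unstressed levels of 267, 278 and 251 CPM and 266, 237 and 263 CPM. *DRS1*, an RNA helicase, and *UTP23* differed by 2.21 ± 0.27 and 2.2 ± 0.31. Replicates 1, 2 and 3 gave nearly equal medians, of -2.71, -2.74 and -2.62 for the processome and -2.84, -2.83 and -2.88 for the 60S factors, and without replicates 1 and 2 the positive differences numbered 40 and 43.

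RNA polymerases I and III, which transcribe ribosomal and transfer RNA, fell alongside. Of 25 genes 18 were lower (72.0%, beside 14.9% of all tested genes) and none higher. The 2 largest subunits of polymerase I, *RPA190* and *RPA135*, had 24.6, 29.9 and 26.7 CPM and 42.2, 66.8 and 47.5 CPM after salt, against 282, 307 and 305 CPM and 738, 851 and 782 CPM without stress. Their log2 fold changes of -3.46 and -3.92 were smaller in size than those of the wild type, -5.24 and -6.1. Of the 12 polymerase II and shared subunits 5 were lower (41.7%). These 5 (*RPC10*, *RPB8*, *RPB5*, *RPB10* and *RPO26*) are the subunits that all 3 polymerases share. The largest subunit *RPO21* had 304, 323 and 374 CPM after salt and 406, 399 and 419 CPM without stress and was not called. The test of the difference passed for each shared subunit, with the smaller fall in the mutant, whereas the response of *RPO21* was lower in the mutant (difference -0.46 ± 0.14, adjusted p = 0.0247). With replicate 3 as the single salt-treated mutant library, the differences of *RPC10*, *RPB5* and *RPO21* were 0.54, 0.45 and -0.3 and did not pass the test, whose spread then comes from the other groups. The difference of *RPB5* also missed it when any of 7 single libraries was left out (0.54 to 0.63) and when scaled to library totals (0.43), that of *RPO21* when any of 4 was (-0.44 to -0.4), and scaled to *ENO1* those of *RPC10*, *RPB5* and *RPO21* missed it at 0.49, 0.3 and -0.74.

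Ribosomal protein genes fell by less than assembly factors and differed between the libraries. Of 56 genes of the small subunit 41 were lower (73.2%, median -1.19), beside 14.9% of all tested genes. Of 82 genes of the large subunit 61 were lower (74.4%, median -1.29), and none was higher in either list. The medians per salt-treated library were -1.11, -0.89 and -1.78 for the small subunit and -1.18, -1.02 and -1.82 for the large subunit in replicates 1, 2 and 3, so that replicate 3 showed the deepest fall in both. Without replicates 1 and 2, when the 1 remaining library takes its spread from the other groups, the genes called lower were 55 of 56 and 79 of 82, and without replicate 3, when 2 libraries remain, they were 27 of 56 and 50 of 82. In the wild type 56 of 56 and 81 of 82 were lower, with medians of -2.50 and -2.52. Over all tested genes the difference from the wild type was positive for 15.0%. The difference was positive for 55 and 80 genes, with medians of 1.34 and 1.27, which became 40 and 57 genes with medians of 0.71 and 0.72 when replicates 1 and 2 were left out. All genes of up to 300 bases outside the ribosomal protein lists had a median difference of -0.33 between replicate 3 and the other libraries, beside -0.91 for ribosomal protein genes of that length. The part of length in the difference between strains was not tested.

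Single ribosomal protein genes differed in how far replicate 3 stood apart. *RPS26B* had 84, 99.7 and 74 CPM after salt and 861, 713 and 843 CPM without stress, and fell by 3.23 with similar levels in all 3 salt-treated libraries. *RPL16A* had 324, 368 and 304 CPM after salt and 1501, 1284 and 1387 CPM without, against 151, 138 and 161 CPM in the salt-treated wild type. *RPL39* (YJL189W, chrX:75933-76474, plus strand), one of the shortest ribosomal protein genes, had 553, 620.3 and 132 CPM after salt and 333, 347 and 319 CPM without stress, so that replicates 1 and 2 lay above the unstressed libraries and replicate 3 far below them. Its log2 fold change was 0.38 ± 0.37 (adjusted p = 0.373), and it was -1.34 when replicates 1 and 2 were left out. *RPL31B* and *RPL33B* fell by 2.24 and 2.08, *RPS18B* fell by 2.05 and *RPS11A* fell by 1.95. Genes listed as mitochondrial ribosomal proteins, by their symbols alone, stayed apart, with 1 of 67 higher and 1 lower, or 15 lower when scaled to *ENO1*. The higher gene was *MRP8*, whose place in the mitochondrial ribosome was not checked. The lower gene was *MRPS16*, not called at -0.92 without replicate 1 of the unstressed mutant.

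Translation factors and tRNA charging fell too, with 63.2% and 76.2% of their genes lower, beside 14.9% of all tested genes. Of 38 translation factors 24 were lower, led by the elongation factor 3 gene *YEF3* with 1314, 1836 and 1272 CPM after salt and 8018, 9069 and 8694 CPM without stress, and of 21 cytosolic tRNA synthetases 16 were lower, among them *CRS1*, *THS1* and *YHR020W* with -1.96 ± 0.09, -1.94 ± 0.1 and -2.1 ± 0.13. The fall of *YEF3* was smaller than in the wild type by 2.03 ± 0.23 (adjusted p = 2.78e-05), while *TIF4631*, encoding eIF4G, had -2.29 in the mutant and -2.28 in the wild type (difference -0.01 ± 0.15). The initiation factor gene *FUN12* fell by 2.04.

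Of 25 genes of purine synthesis and of GTP, CTP and adenine conversion 8 were lower (32%, beside 14.9% of all tested genes) and 3 higher. The adenine deaminase *AAH1* had 5.26, 10.9 and 5.53 CPM after salt and 236, 257 and 257 CPM without stress, with the highest salt-treated level in replicate 2. The CTP synthase *URA7* had 25.1, 36.2 and 27.6 CPM after salt and 449, 498 and 488 CPM without, and *GUA1*, which makes GMP, 209, 253 and 165 CPM and 1539, 1695 and 1668 CPM. *IMD4*, an IMP dehydrogenase gene, fell by 1.72. All 4 fell less than in the wild type, with differences of 2.23 ± 0.33, 2.84 ± 0.19, 1.42 ± 0.2 and 1.46 ± 0.19. *GCV2*, a subunit of the glycine decarboxylase that feeds one-carbon units, rose by 1.53 ± 0.11. Amino acid synthesis showed 11 of 52 genes lower (21.2%, beside 14.9% of all tested genes) and 1 higher (1.92%, beside 15.7%). The largest falls were in *LEU9* (leucine), *LYS4* (lysine) and *ARO2* (aromatic amino acids), at -2.38 ± 0.11, -2.09 ± 0.15 and -1.66 ± 0.17.

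Several other functions had few or mixed calls. Of 40 elongation factors that the study purified 7 were lower (17.5%, beside 14.9% of all tested genes) and none higher, and *SPT5* (YML010W, chrXIII:247677-250868, plus strand), the partner of *SPT4*, had 30.6, 24.6 and 42.8 CPM after salt and 130.4, 77.5 and 88.2 CPM without stress, so that it fell by 1.59 beside -0.55 in the wild type (difference -1.05 ± 0.33, adjusted p = 0.0312). The difference of *SPT5* lost significance when any of 6 single libraries was left out, and was -0.66 without replicates 1 and 2 of the salt-treated mutant. For 9 of the 40 the response was lower in the mutant (11.0% of all tested genes) and for none higher, but the count was 2 without replicates 1 and 2, 4 without either of them, and 15 without replicate 3. The nuclear exonuclease *RAT1* and the forkhead factor *FKH2* fell by 1.69 and 1.55. Of 15 cyclins and inhibitors 3 were lower, *FAR1*, *CLB2* and *CLB6* (the last not called at -0.94 without replicates 1 and 2), and 1 was higher (none when scaled to *ENO1*), the G1 cyclin *PCL1*, at 117, 106 and 94.3 CPM after salt and 50.6, 46.1 and 42.9 CPM without stress, whose log2 fold change was 0.05 in the wild type (difference 1.13 ± 0.14, adjusted p = 8.54e-05). Of 10 histone genes only the linker histone *HHO1* was called, with -1.21 ± 0.14.

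Of 27 ergosterol genes 5 were lower (18.5%, beside 14.9% of all tested genes) and 1, *ERG28*, was higher (3.7%, beside 15.7%). Among the lower genes were the regulator *ECM22* and the demethylase *ERG11*, with -1.83 ± 0.12 and -1.32 ± 0.1. Among cell wall glycoproteins the shares were near those of all tested genes (15.7% higher and 14.9% lower), with 5 of 28 higher and 3 lower (4 and 16 when scaled to *ENO1*). *SPI1*, also a member of the small stress list, *CWP1* and *YGP1*, wall or secreted glycoproteins induced in stationary or stressed cells, rose by 6.41 ± 0.16, 4.51 ± 0.18 and 3.8 ± 0.13, and the wall protein *SED1* by 2.0 ± 0.14. A positive difference from the wild type was found for 15.0% of all tested genes. For 15 of the 28 the difference from the wild type was positive, 14 were lower in the wild type, and 7 differences were positive without replicates 1 and 2. In the mating pathway of a cells 2 of 21 genes were higher (9.52%), *STE18* and *PRM1*. Another 2 were lower (9.52%), the agglutinin subunit *AGA2* and the transcription factor *STE12*. Without replicates 1 and 2 of the salt-treated mutant *STE18* was at 0.86 and *STE12* at -0.88, and neither was called. Of 17 genes of the phosphate regulon 4 were higher and 1 lower (1 and 5 when scaled to *ENO1*), including the phosphatase *PHM8* with 4.46 ± 0.19 and the sodium-phosphate symporter *PHO89* with 1.87 ± 0.32, and the acid phosphatase *PHO3* fell by 2.5.

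**Figure D5:**
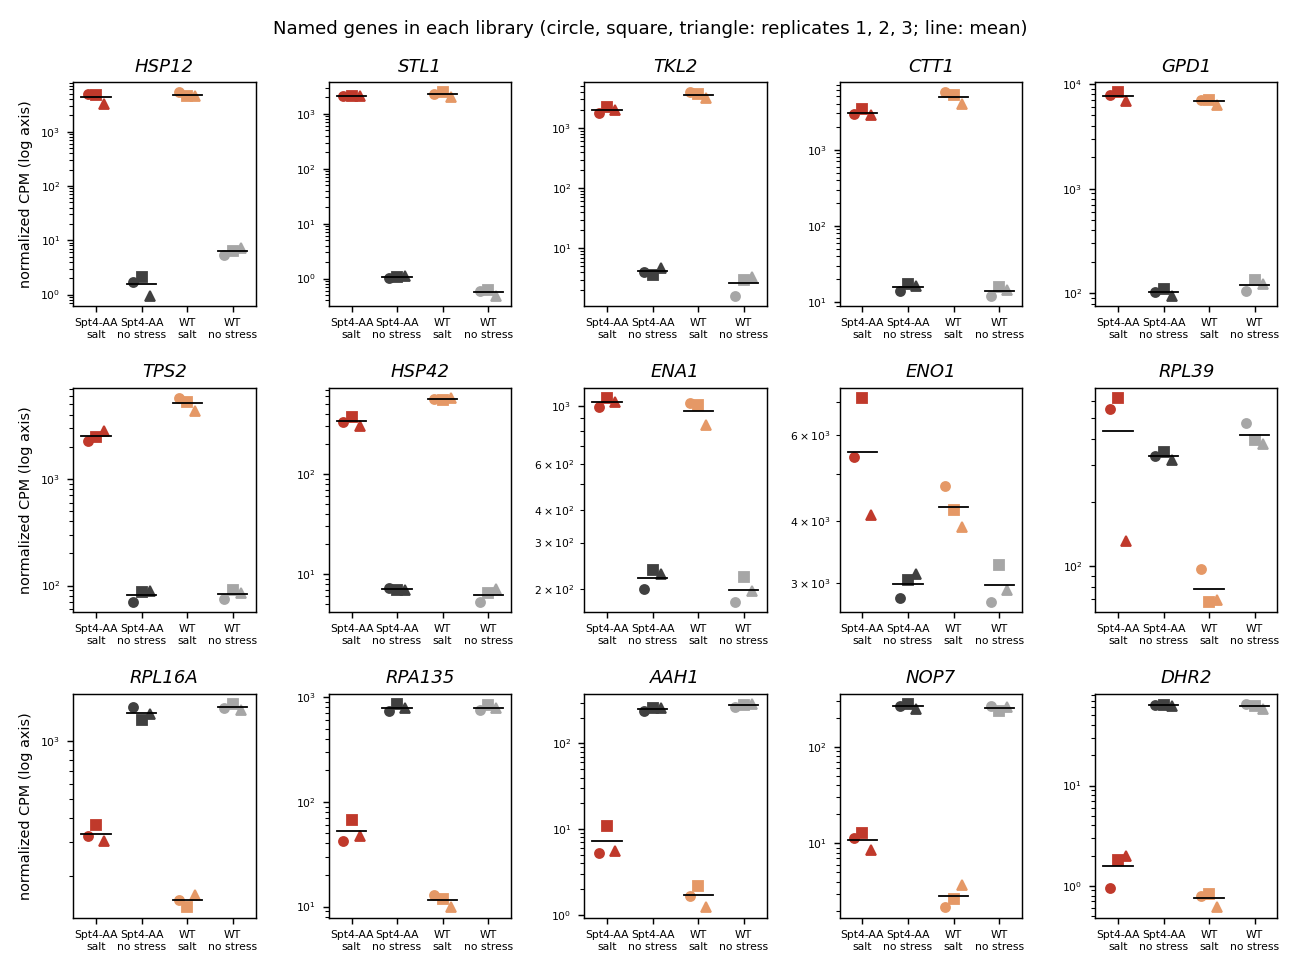
Normalized CPM on a log axis of 15 genes in each library, with circles, squares and triangles for replicates 1, 2 and 3 and a line at the mean of each group, for the Spt4-AA mutant after salt, the mutant without stress, the wild type after salt and the wild type without stress. Stress genes stand high and ribosome genes low in both salt-treated groups, the fall of *RPA135*, *AAH1* and *NOP7* is less deep in the mutant, and *RPL39* splits replicate 3 of the salt-treated mutant from replicates 1 and 2.

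The remaining large rises included *YNL194C*, a membrane protein, with 191, 205 and 227 CPM after salt and 0.253, 0.389 and 0.347 CPM without stress, and the proline permease *PUT4* with 596, 747 and 470.1 CPM and 2.59, 2.65 and 3.38 CPM. *YBR116C* rose by 8.01 ± 0.3, but has no entry in the annotation used, so overlap with another gene was not examined. *YOL085C* and *YGR051C* had at most 3 counts in each unstressed mutant library and were at least 7.09-fold and 6.87-fold higher after salt, against a floor of 3 counts per library.

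Some genes were called in one strain alone. The 170 genes higher in the mutant and not called in the wild type had medians of 1.25 in the mutant and 0.61 in the wild type, and the difference passed for 48 of them (28.2%, beside 26.0% of all tested genes). The 130 lower genes not called in the wild type had medians of -1.2 and -0.68, and the difference passed for 14 (10.8%). Conversely, 328 genes were higher in the wild type and not called in the mutant, with medians of 0.73 in the mutant and 1.25 in the wild type, and the difference passed for 173 of them (52.7%). Another 358 were lower in the wild type alone, with medians of -0.7 and -1.32, 35 of them ribosomal protein genes, and the difference passed for 206 (57.5%).

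Genes that moved in opposite directions in the strains numbered 4, all higher in the mutant and lower in the wild type. *OST4*, a short subunit of the oligosaccharyltransferase, had 30.7, 33.2 and 12 CPM after salt and 10.5, 7.63 and 5.81 CPM without stress in the mutant, and 6.33, 6.31 and 8.64 CPM and 21.2, 11.3 and 11.3 CPM in the wild type. Replicate 3 lay below replicates 1 and 2 after salt, and without those libraries the log2 fold change of *OST4* was 0.58. The small nucleolar RNAs *snR49* and *snR57* and the open reading frame *YEL045C* stayed below 4 CPM in every mutant library, and the groups overlapped for *snR49* and *YEL045C*. Their calls were lost when single libraries were left out, with values down to 1.08 for *snR49*, 0.77 for *snR57* and 0.92 for *YEL045C*. Among significant differences of genes called in the mutant, those furthest above the wild type were *snR49*, *YEL045C*, *YIR044C* and *DMO1*, at 4.02 ± 0.92, 3.89 ± 0.83, 3.58 ± 0.99 and 3.4 ± 0.78, all genes of few counts. The difference of *YIR044C* did not pass, at 3.21, without replicate 2 of the unstressed wild type. *OST4* and *snR57* were chosen after their values were seen. Among genes called in the mutant, the responses furthest below those of the wild type were those of *YCL048W-A*, *BAG7*, *GRE1* and *MGA1*, with differences of -3.47 ± 0.58, -2.41 ± 0.46, -2.28 ± 0.29 and -2.26 ± 0.3. *BAG7*, a GTPase-activating protein for Rho1, had 4.26, 4.13 and 4.12 CPM after salt and 0.316, 0.311 and 0.78 CPM without stress in the mutant, and 17.8, 20.9 and 21.5 CPM and 0.444, 0.311 and 0.49 CPM in the wild type.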

How the data were processed

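Poly(A) RNA of 12 cultures was sequenced as 50-base single-end reads from a stranded kit. The authors mapped the reads to sacCer3 with TopHat2 2.1.0 and deposited raw counts per gene, made with featureCounts 1.5.1 on the Ensembl R64-1-1 annotation, by the study's methods from uniquely mapped reads, although *ENA2* and *ASP3-1*, which have no unique 50-base window, carry counts. Whether the counting used strand is not given in the sources used here, so reads of a gene and of an overlapping antisense gene cannot be told apart. Of 7126 genes 179 had no count, and 6040 passed edgeR's filterByExpr.

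Counts were analysed with edgeR 4.0.16 in R 4.3.3: TMM normalization, 1 coefficient for each of the 4 groups over all 12 libraries, robust quasi-likelihood F-tests and Benjamini-Hochberg adjustment over the 6040 genes. Calls needed an adjusted p under 0.05 and a log2 fold change of at least 1 in size. The difference between strains was the contrast of both responses, at an adjusted p under 0.05. Normalized CPM used the tested-gene total times the TMM factor. The fits were tested on simulated data. The study itself used DESeq2 1.14.1. The labels gave the groups. The p-values rest on the spread between replicates within groups, with an estimate for each gene that all 4 groups share. Each group is thus assumed to vary like the others, and a group left with 1 library adds nothing to that estimate.

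Sequences and coordinates came from NCBI RefSeq for R64, where 6048 genes matched by locus tag and 6006 had a promoter window. Motif shares and gene list summaries carry no test. Members and gene lists were chosen with earlier results of these data known, and most lists were written from textbook knowledge, while the 40 elongation factors are those the study purified. Genes were named if they had the 12 largest rises or falls without overlap between the groups, were among the 3 largest changes of a list or had a role described in it, were genes of the study's blots or *SPT4*, had the 4 most extreme differences between strains in each direction, or the 4 largest gaps of replicate 3 in each direction. Some genes that this rule names are not reported here. Alternatives were DESeq2 1.42.0, RLE size factors, library totals, scaling to *ENO1*, other count filters, the mutant libraries alone, a test against 2-fold, a replicate block, a term for the library numbers, leaving out libraries, and a shorter promoter window.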

Additional observations from a re-analysis of the deposited data

Results flagged for a closer look

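The response to salt differed between the strains, by edgeR's test of the difference itself at an adjusted p under 0.05, for the following genes named in the text, given as the log2 response of the mutant minus that of the wild type. Beside them, 26.0% of all tested genes passed that test, and its count changed with single libraries. Without replicates 1 and 2 of the salt-treated mutant, 21 of these genes no longer passed it, in a fit whose spread comes from the other groups. When single libraries were left out, 21 genes missed it at least once, namely *APE1*, *ATG8*, *CIT1*, *CYC7*, *DHR2*, *ECM22*, *GPH1*, *GPM2*, *GSY1*, *HCA4*, *HXK1*, *MRD1*, *NDE2*, *PHO89*, *RPB5*, *RPO21*, *SHO1*, *SPT5*, *SSK22*, *STL1* and *YIR044C*. Among genes of stress proteins, storage carbohydrates and glycerol the response was lower in the mutant, with -1.01 for *STL1*, -0.67 for *PGM2*, -0.87 for *TSL1*, -1.0 for *TPS2*, -0.55 for *GPH1*, -0.9 for *HSP42*, -0.83 for *SSA4*, -2.28 for *GRE1*, -0.71 for *NTH1*, -1.08 for *HSP104*, -0.8 for *HSP82* and -1.94 for *SIP18*. It was higher in the mutant, with 1.81 for *HSP12*, 0.85 for *GPP2* and 0.51 for *GSY1*. Among genes of metabolism, redox enzymes, proteolysis and signalling the response was lower in the mutant, with -1.44 for *TKL2*, -1.07 for *XBP1*, -1.15 for *USV1*, -0.85 for *CTT1*, -0.42 for *PRX1*, -0.88 for *ALD3*, -0.93 for *ALD2*, -0.84 for *HXT5*, -0.86 for *GPM2*, -1.38 for *CYC7*, -1.05 for *NDE2*, -0.45 for *CIT1*, -0.46 for *APE1*, -2.26 for *MGA1*, -0.69 for *MSN4*, -1.66 for *GND2*, -0.72 for *RPN4* and -0.9 for *ATG8*. In the same functions it was higher in the mutant, with 0.93 for *SSK22*, 0.54 for *SHO1*, 0.63 for *HXK1*, 1.81 for *RKI1*, 1.03 for *CYC1* and 0.6 for *ALD5*. For ribosome assembly factors the difference was 1.03 for *DHR2*, 1.2 for *MRD1*, 1.53 for *HCA4*, 1.75 for *ENP2*, 1.59 for *SDA1*, 1.89 for *NOP7*, 2.2 for *UTP23* and 2.21 for *DRS1*. For ribosomal protein genes it was 1.51 for *RPS26B*, 0.96 for *RPS18B*, 1.09 for *RPS11A*, 1.68 for *RPL31B*, 1.15 for *RPL33B*, 1.25 for *RPL16A* and 2.79 for *RPL39*. For polymerase subunits, translation factors and tRNA synthetases it was 2.18 for *RPA135*, 1.78 for *RPA190*, 0.81 for *RPC10*, 1.01 for *RPB8*, 0.63 for *RPB5*, 2.03 for *YEF3* and 1.28 for *YHR020W*. Other genes with a positive difference had 2.23 for *AAH1*, 1.68 for *RRP12*, 1.26 for *TOD6*, 2.84 for *URA7*, 1.42 for *GUA1*, 1.41 for *LEU9*, 0.99 for *LYS4*, 0.92 for *ARO2*, 0.86 for *FAR1*, 0.49 for *ERG11*, 0.66 for *AGA2*, 1.39 for *PHO3*, 1.34 for *PHO89*, 3.4 for *DMO1*, 3.58 for *YIR044C*, 3.89 for *YEL045C*, 4.02 for *snR49*, 1.46 for *IMD4*, 1.13 for *PCL1*, 2.67 for *OST4* and 3.31 for *snR57*. Other genes with a negative difference had -1.05 for *SPT5*, -0.5 for *ECM22*, -3.47 for *YCL048W-A*, -2.41 for *BAG7* and -0.46 for *RPO21*.

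Outside the comparisons, replicate 2 of the salt-treated mutant held 27 counts on *LEU2*, 35 on *MET17*, 77 on *URA3* and 158 on *ASP3-1*, while the other mutant libraries held at most 1 count on each. The strain lacks the first 3 genes by its genotype.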

How the results depend on the processing

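The mutant's counts, 951 higher and 897 lower, stayed within 1.5 times under DESeq2, RLE factors, library totals, other count filters, the mutant libraries alone and leave-one-out fits (919 to 984 higher, 863 to 968 lower, and 1090 to 1121 and 1111 to 1170 in the wild type). Scaled to *ENO1* they were 389 and 2478 (657 and 1817 in the wild type), and against a 2-fold threshold 623 and 583. The 1568 differences between strains (663 negative, 905 positive) numbered 550 scaled to *ENO1* (218 and 332), 866 with a term for the library numbers (304 and 562), 878 without both libraries numbered apart (316 and 562), and 1175 to 2394 when single libraries were left out (442 to 1102 negative, 733 to 1292 positive), with the highest counts without replicate 3 of the salt-treated mutant. *RPL39* reversed from 0.38 to -1.34 with the term and also without both libraries. With 250 bases before the start only, STRE shares were 9.28% of lower, 16.2% of uncalled and 19.1% of tested genes and 18.7% of all promoters, and PAC shares 10.3% of higher, 12.9% of uncalled and 17.0% of tested genes and 17.0% of all promoters. Where no number shows it, the cause was not tested.

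Same-numbered salt-treated and unstressed mutant libraries deviated with correlations of 0.129, 0.18 and -0.109, beside -0.307 to 0.213 for pairs with unlike numbers. So few pairs cannot show whether same-numbered libraries share more than a number. With a replicate block 943 genes were higher and 912 lower, and 1631 differed between strains (699 negative, 932 positive).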
